A study of Mus musculus with 4 samples.

Results

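The genes of TGF-beta, BMP and activin signalling were followed in cultured stromal cells of mouse bone marrow that carry or lack Asxl1. Its product is a partner of the deubiquitinase BAP1, which removes ubiquitin from histone H2A. The set holds 47 symbols, namely ligands, latency proteins, receptors, Smads, nuclear and ubiquitin regulators, and direct target genes, without the extracellular antagonists. It was drawn from a list of symbols that was chosen with earlier results of these data known. All 47 had a single row among the 23997 symbols of the deposited expression table. The 4 libraries came from MSPC, mesenchymal stem/progenitor cells that adhere and expand when marrow is cultured. They comprised 2 Asxl1-/- and 2 wild-type (WT) cultures on a C57BL/6 background at passages 5 to 10, in MesenCult medium with supplement. The age of the mice, the number of animals and the design of the Asxl1 allele are not stated in the labels. P-values therefore measure only the spread between these libraries, which may be technical.

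TGF-beta, activins and BMPs are dimeric secreted proteins that bring together type I and type II receptor kinases on the cell surface. TGF-beta and activin receptors phosphorylate Smad2 and Smad3, BMP receptors phosphorylate Smad1, Smad5 and Smad9, and both classes enter the nucleus with the shared partner Smad4. In marrow stroma BMPs are known for driving bone and cartilage formation, and TGF-beta, stored in the matrix in a latent form, for acting on matrix production and on early steps of the osteoblast lineage.

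Asxl1 had 0.273 and 0.312 FPKM in the Asxl1-/- libraries, against 14.6 and 11.2 FPKM in the WT libraries, so all 4 libraries match their genotype labels. The limma test described below gave it a log2 fold change of -3.41 (standard error 0.29) and an adjusted p of 0.215. FPKM are fragments per kilobase of transcript scaled to the mapped fragments of a library, a unit that allows levels to be compared between genes. They summed to 553089 and 497340 in Asxl1-/- replicates 1 and 2 and to 563749 and 703730 in WT replicates 1 and 2, and the number of reads is unknown. Rows spanning under 300 bp held 22.6% and 21.4% of the sum in Asxl1-/- replicates 1 and 2. In WT replicates 1 and 2 they held 24.9% and 40.9%. Stromal markers were abundant in every library, with a sum over 12 genes between 4512 and 5923 FPKM, although Lepr did not exceed 0.0426 FPKM in any library and Pdgfra stood at 4.78 FPKM in WT replicate 2. The 17 macrophage markers summed to 81.6 and 378 FPKM in Asxl1-/- and to 7.54 and 565 FPKM in WT, and Fcer1g alone made up 72.2 FPKM of the sum in Asxl1-/- replicate 1, against 7.38 FPKM in Asxl1-/- replicate 2. The 20 proliferation genes summed to 295 and 273 FPKM in Asxl1-/-, against 745 and 524 FPKM in WT. The 9 endothelial markers summed to 0.663 and 8.30 FPKM in Asxl1-/- and to 0.623 and 0.456 FPKM in WT, and the 13 markers of other blood cells to at most 2.04 FPKM.

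Across the set 3 patterns were picked out after the values were seen. Both activin beta subunit genes stood higher in both Asxl1-/- libraries than in both WT libraries. All 3 TGF-beta ligand genes and the latency gene Ltbp4 stood lower. Groups without overlap were about as common among the tested members (39.5%) as among all genes tested (40.8%). Bmp4, Smad6 and the Id genes each had their 2 highest values in Asxl1-/- replicate 2 and WT replicate 1, across the genotypes. Other members, among them Ltbp2, Tgfbr1, Tgfbr3 and Smad7, had the same 2 highest libraries, and the share of all genes with this order was not counted. No member passed the test across all genes. Of the 47 members, 38 averaged 1 FPKM or more across the libraries and were tested with limma on log2(FPKM + 1), together with all other genes above that level, and 0 reached a Benjamini-Hochberg adjusted p under 0.05. The smallest adjusted p of a member was 0.492 by limma. Of all 11481 genes tested, 0% were called higher and 0.0261% lower.

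At an unadjusted limma p under 0.05, 1 member was higher in Asxl1-/-, namely Inhbb, and 2 were lower, namely Tgfb2 and Ltbp4. Among all genes tested 2.51% were higher and 5.41% lower by that measure, or 7.92% in either direction, so the members' share of 3 in 38 lies near the background. The split of all these calls moves with the scaling, from 288 higher and 621 lower as deposited to 385 higher and 512 lower after quantile normalization. For 8 of the 38 tested members (21.1%) each Asxl1-/- value exceeded each WT value, against 15.6% of all genes tested. For 7 members (18.4%) each Asxl1-/- value was below each WT value, against 25.2% of all genes tested. In total 39.5% of the members did not overlap, against a background of 40.8%. After quantile normalization the members' counts were 10 above and 6 below, with 20.6% and 20.1% of all genes. An absolute log2 fold change of at least 1 was seen in 6 tested members (15.8%), against 9.73% of all genes tested. The median log2 fold change (Asxl1-/- minus WT, on the log2(FPKM + 1) scale) was -0.0030 over the tested members and -0.07 over all genes tested. Of the 38, 2 passed the filter with a mean under 1 FPKM in one group, namely Bmp6 and Smad9, so counts over the tested members are a description only.

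**Figure D1:**
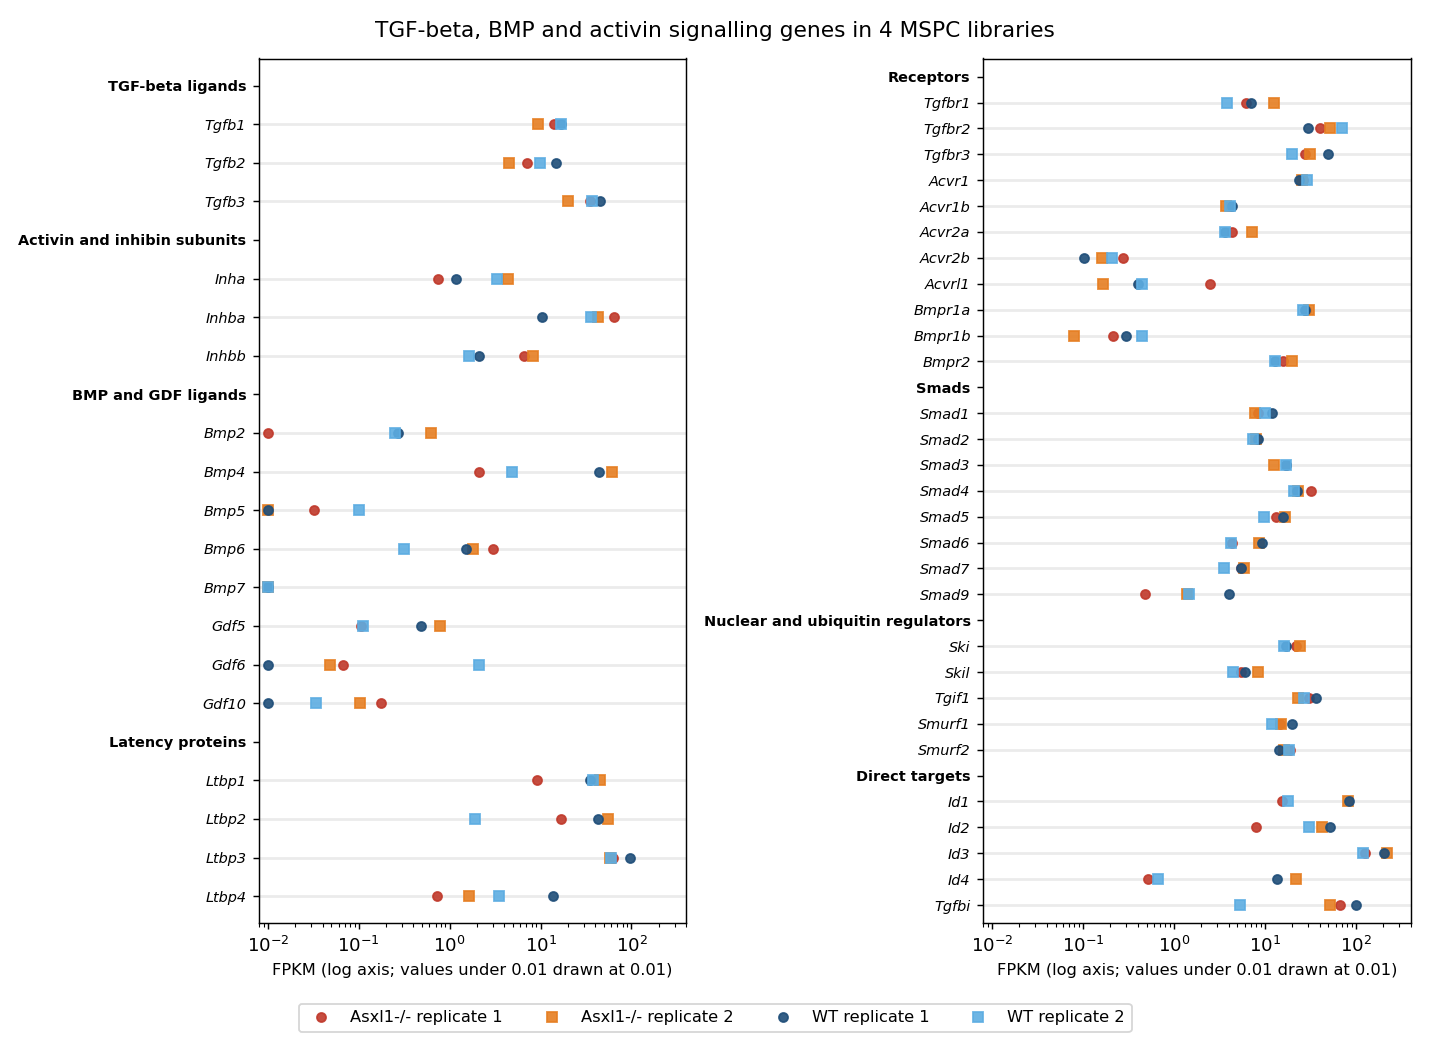
FPKM of the 47 genes in each of the 4 libraries, on a log axis, ordered by role; red and orange mark Asxl1-/- replicates 1 and 2, dark and light blue WT replicates 1 and 2. Acvr1, Bmpr1a and Smad2 sit close together across libraries, while Bmp4 runs from 2.10 to 60.4 FPKM and Id4 from 0.514 to 22.3 FPKM.

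The TGF-beta ligand genes were all lower in Asxl1-/- than in WT. Tgfb3, the most abundant of the 3, had 34.7 and 19.9 FPKM in the Asxl1-/- libraries, against 45.0 and 36.7 FPKM in the WT libraries. Tgfb1, the isoform best known from bone matrix, had 14.1 and 9.38 FPKM in Asxl1-/-, against 16.9 and 16.8 FPKM in WT. Tgfb2 had 7.10 and 4.55 FPKM in Asxl1-/-, against 14.8 and 9.75 FPKM in WT. The groups did not overlap for any of the 3, yet the gaps were small beside the spread, since for Tgfb3 the nearest libraries of the groups were 34.7 and 36.7 FPKM. The means were 5.83 ± 1.80 FPKM in Asxl1-/- and 12.3 ± 3.56 FPKM in WT for Tgfb2 (SD, n = 2 each). Its log2 fold change of -0.96 (standard error 0.34) had a limma adjusted p of 0.613, those of Tgfb1 and Tgfb3 were -0.51 and -0.61, and all 3 remained below 0 under each alternative run. Without Asxl1-/- replicate 2 the values were -0.24 for Tgfb1 and -0.22 for Tgfb3, and without Asxl1-/- replicate 1 they were -0.78 and -0.99. The summed level of the 3 genes was 55.9 and 33.9 FPKM in Asxl1-/-, against 76.7 and 63.3 FPKM in WT. The mix was similar, with Tgfb3 making up 62.0% and 58.9% of the sum in Asxl1-/- and 58.7% and 58.0% in WT. In these bulk cultures fewer cells of a type and less RNA per cell cannot be told apart. Tgfb1 is also made by macrophages, whose summed markers were 81.6 and 378 FPKM in Asxl1-/- and 7.54 and 565 FPKM in WT. Proliferation genes moved with the genotype in the same direction as the ligands. With the macrophage markers as a covariate the log2 fold changes were -0.52 for Tgfb1, -0.99 for Tgfb2 and -0.63 for Tgfb3. That covariate, the mean log2(FPKM + 1) of the markers, was 0.825 and 2.55 in Asxl1-/- and 0.372 and 3.27 in WT. Its group averages were close, so the fit could hardly move a genotype difference and decides nothing about macrophages. The part of macrophage RNA and of proliferation in the ligand levels was not tested.

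TGF-beta leaves the cell bound to a latent TGF-beta binding protein that tethers it to the matrix. Ltbp4 (mm10 chromosome 7, 27305141 to 27337612), whose product also organises elastic fibres, was the member with the largest ratio between the groups among those tested. It had 0.730 and 1.63 FPKM in Asxl1-/-, against 13.6 and 3.46 FPKM in WT, with means of 1.18 ± 0.636 and 8.54 ± 7.19 FPKM (SD, n = 2 each). Every Asxl1-/- value lay below every WT value, while the WT libraries themselves differed 3.94-fold. The log2 fold change was -1.92 (standard error 0.66, limma adjusted p = 0.605), and without WT replicate 1 it was -1.06. Ltbp4 is the 1 member marked significant in the authors' deposited table, with group values of 1.48 and 9.72 FPKM in Asxl1-/- and WT, a log2 ratio of -2.71 and q = 0.0479. That table marks 121 of 12881 genes tested (0.939%), and it tested 41 of the 47 members.

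The other latency genes differed mainly between libraries of 1 genotype. Ltbp3, needed for secretion of latent TGF-beta and the most abundant of the family in all 4 libraries, stood at 61.8 and 58.1 FPKM in Asxl1-/- and at 96.9 and 59.9 FPKM in WT. Ltbp1 stood at 9.11 and 44.9 FPKM in Asxl1-/- and at 35.4 and 37.3 FPKM in WT, with Asxl1-/- replicate 1 apart from the other 3. Ltbp2, which binds microfibrils and not TGF-beta, stood at 16.9 and 55.1 FPKM in Asxl1-/- and at 42.7 and 1.91 FPKM in WT. Its log2 fold change of 1.49 had a standard error of 1.42 and was -0.46 without WT replicate 2. Ltbp4 took 0.823% and 1.02% of the family's summed FPKM in Asxl1-/-, against 7.22% and 3.37% in WT.

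Activins are dimers of the beta A and beta B subunits encoded by Inhba and Inhbb, and a beta subunit paired with the alpha subunit encoded by Inha forms inhibin, an antagonist. Inhbb (mm10 chromosome 1, 119415465 to 119422248) had 6.54 and 8.31 FPKM in Asxl1-/-, against 2.13 and 1.64 FPKM in WT. The 2 Asxl1-/- libraries differed 1.27-fold and the 2 WT libraries 1.30-fold, while the group means of 7.42 ± 1.25 and 1.88 ± 0.347 FPKM (SD, n = 2 each) differed 3.94-fold. The log2 fold change of 1.54 (standard error 0.28) had the smallest limma p of any member, 0.0036 unadjusted and 0.492 adjusted over all genes. With each library left out in turn the log2 fold change ran from 1.39 to 1.70, the narrowest range relative to its size among the members with an absolute value of at least 1. In the authors' deposited table the log2 ratio of Inhbb was 2.10, with p = 0.00965 and q = 0.305.

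Inhba (mm10 chromosome 13, 16014475 to 16027211), the more abundant beta subunit, had 63.8 and 42.4 FPKM in Asxl1-/-, against 10.3 and 35.6 FPKM in WT. The groups did not overlap, and WT replicate 2 lay nearest to Asxl1-/- replicate 2. The log2 fold change was 1.38 (standard error 0.63, limma adjusted p = 0.632). It was 0.53 without WT replicate 1 and 2.23 without WT replicate 2. The authors' deposited table gives Inhba a log2 ratio of 1.30 with q = 0.438. Genes of chromosome 13 had a median log2 level 0.38 above the other libraries in WT replicate 1 and 0.23 below them in WT replicate 2 (-0.23). The order of the WT libraries was the reverse for Inhba, and the part of this shift in the Inhba level was not tested. Inha stood at 0.745 and 4.34 FPKM in Asxl1-/- and at 1.17 and 3.28 FPKM in WT, and the groups overlapped. The ratio of Inhba to Inha was 85.6 and 9.77 in Asxl1-/- and 8.84 and 10.9 in WT, with Asxl1-/- replicate 1 apart from the other 3 libraries.

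The promoter window of Inhbb is shown because this gene had the clearest separation of the groups. It covers 250 bases before and 50 after the transcription start on the minus strand (GRCm38.p6, the build called mm10, chr1:119422199-119422498, RefSeq). It was searched on both strands for CAGAC, the Smad box bound by Smad3 and Smad4, for the palindrome GTCTAGAC, made of GTCT and its reverse complement AGAC, and for GGCGCC, a GC-rich element bound by BMP Smads. It holds none of the 3, so no base is in capitals. Of 32851 such windows 49.6% hold CAGAC, 0.213% hold GTCTAGAC and 11.9% hold GGCGCC.
Inhbb: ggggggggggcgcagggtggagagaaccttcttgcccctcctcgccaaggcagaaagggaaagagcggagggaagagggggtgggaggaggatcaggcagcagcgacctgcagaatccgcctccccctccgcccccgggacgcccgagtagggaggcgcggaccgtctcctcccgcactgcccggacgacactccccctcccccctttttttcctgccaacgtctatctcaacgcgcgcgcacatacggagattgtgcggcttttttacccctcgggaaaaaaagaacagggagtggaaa

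**Figure D2:**
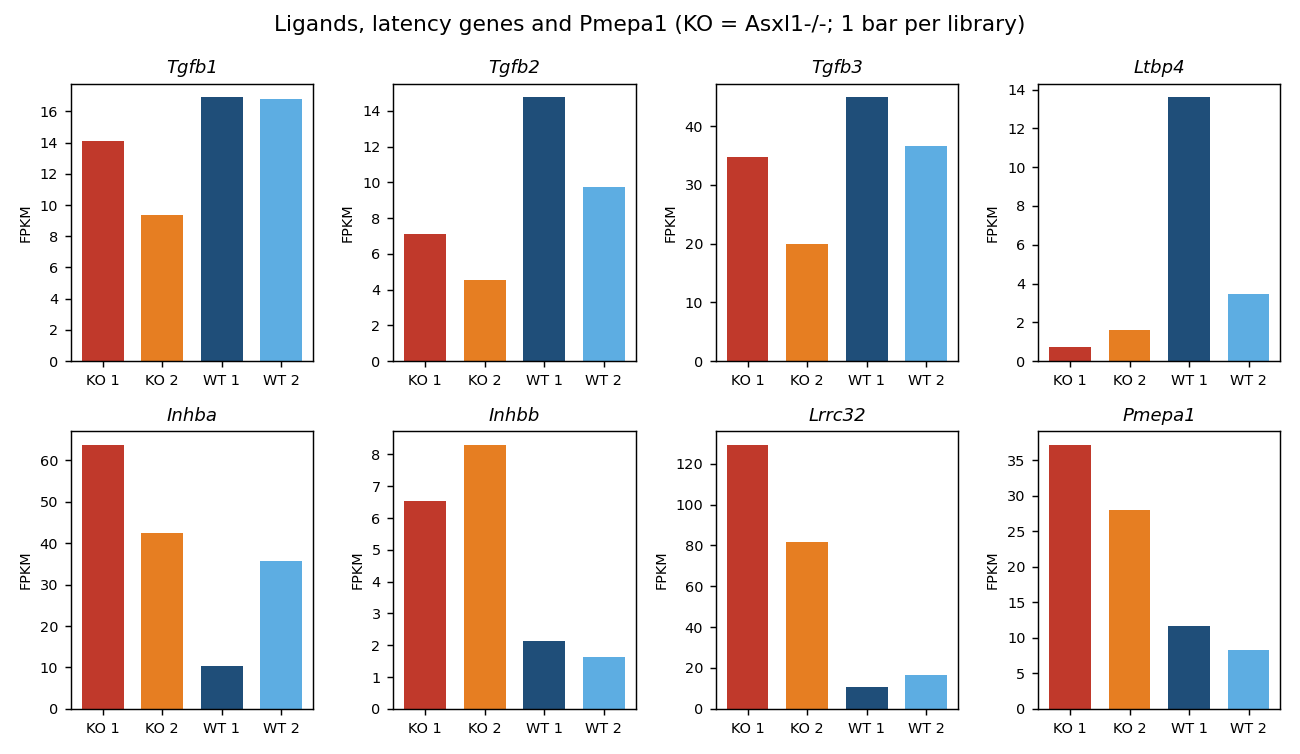
FPKM of 8 genes in each library, as bars from 0, with Asxl1-/- (KO) replicates in red and orange and WT replicates in blue. Tgfb1, Tgfb2, Tgfb3 and Ltbp4 are lower in both Asxl1-/- libraries, while Inhba and Inhbb, and Lrrc32 and Pmepa1 from lists of other pathway genes, are higher in both.

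Bmp4 and the Id genes did not separate by genotype. Bmp4 (mm10 chromosome 14, 46383520 to 46390599), the most abundant of the BMP and GDF ligand genes in the set, stood at 2.10 and 60.4 FPKM in Asxl1-/- and at 43.4 and 4.90 FPKM in WT. Asxl1-/- replicate 2 and WT replicate 1 were high and the other pair low, and the 28.7-fold difference within Asxl1-/- and the 8.85-fold difference within WT exceeded the 1.29-fold ratio of the group means. The log2 fold change was -0.23 (standard error 1.73, limma adjusted p = 0.982). It was 1.92 without Asxl1-/- replicate 1 and 1.23 without WT replicate 1, so these 4 libraries give Bmp4 no direction. Genes of chromosome 14 had median log2 levels of 0.25 and -0.19 relative to the other libraries in Asxl1-/- and of -0.14 and 0.10 in WT. These were positive in the libraries where Bmp4 was low and negative where it was high. The part of this shift in the Bmp4 level was not tested.

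The Id genes encode inhibitors of DNA binding that are among the most direct transcriptional targets of BMP Smads. Id1 stood at 15.6 and 81.7 FPKM in Asxl1-/- and at 85.0 and 17.9 FPKM in WT. Id3, the most abundant member of the whole set, stood at 127 and 223 FPKM in Asxl1-/- and at 202 and 121 FPKM in WT. In both genes Asxl1-/- replicate 2 and WT replicate 1 were again the high libraries, as they were for Bmp4. Id4 stood at 0.514 and 22.3 FPKM in Asxl1-/- and at 13.7 and 0.672 FPKM in WT, a 43.4-fold difference within Asxl1-/- and a 20.4-fold difference within WT. Id2 stood at 8.01 and 42.4 FPKM in Asxl1-/- and at 52.6 and 30.4 FPKM in WT. Smad6, an inhibitory Smad that is itself induced by BMP signalling, stood at 4.40 and 8.65 FPKM in Asxl1-/- and at 9.33 and 4.28 FPKM in WT. Bmp4, Smad6 and all 4 Id genes were picked out after their values were seen. In each of them the 2 highest libraries were Asxl1-/- replicate 2 and WT replicate 1. The same held for Ltbp2, Tgfbr1, Tgfbr3, Smad5, Smad7, Skil and Smurf1, so the split was not particular to the BMP and Id genes. The median log2 level of the tested members, relative to the mean of the 4 libraries, was -0.04 and 0.19 in Asxl1-/-. In WT it was 0.23 and -0.19. The share of all genes with this order was not counted.

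The summed level of the 4 Id genes was 151 and 369 FPKM in Asxl1-/- and 353 and 170 FPKM in WT. Id1 held 10.3% and 22.1% of that sum in Asxl1-/- and 24.1% and 10.5% in WT, so its share followed the same split as its level. The log2 fold changes between the genotypes were -0.13 for Id1, 0.10 for Id3 and 0.26 for Id4, with standard errors of 1.07, 0.43 and 1.68. That of Id2 was -1.05 (standard error 0.82, limma adjusted p = 0.769), and 0.08 without Asxl1-/- replicate 1. Macrophage markers summed to 378 FPKM in Asxl1-/- replicate 2 and 7.54 FPKM in WT replicate 1. With these markers as a covariate the log2 fold changes were -0.15 for Id1, -1.03 for Id2, 0.09 for Id3 and 0.23 for Id4. Such a fit concerns the difference between genotypes, which it could hardly move, and not the split within each genotype. The part of macrophage RNA in these levels was not tested. Endothelial cells are rich in Id1 and Smad6. Endothelial markers summed to 8.30 FPKM in Asxl1-/- replicate 2 and 0.623 FPKM in WT replicate 1. Most of the former sum came from Cdh5 at 7.11 FPKM, with Tie1, Emcn and Cldn5 at 0 in all 4 libraries. Genes of chromosome 13, which carries Id4, stood higher in WT replicate 1 (0.38) than in WT replicate 2 (-0.23), as Id4 did, and those of chromosome 4, which carries Id3, stood at 0.42 and -0.12 in the WT libraries. On chromosome 9, which carries Smad6, the order of the WT libraries was the reverse, at -0.33 and 0.40. The part of these shifts and of endothelial RNA in the gene levels was not tested.

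Promoter windows of Bmp4, Smad6, Id3 and Id4 are shown because these genes had their high values in the same libraries. They are read as for Inhbb, with the sequences CAGAC, GTCTAGAC and GGCGCC in capitals on either strand. Bmp4 (GRCm38.p6, minus strand, chr14:46390620-46390919) holds none of them. Smad6 (minus strand, chr9:64022010-64022309) holds the palindrome GTCTAGAC across the transcription start, from base -4 to base 4, and is the 1 member of 35 with a window in the RefSeq table to hold it. Id3 (plus strand, chr4:136143572-136143871) holds CAGAC at -167 to -163 and, on the other strand, at -68 to -64. Id4 (plus strand, chr13:48260866-48261165) holds GGCGCC at -148 to -143. Of the 35 members 19 hold CAGAC and 13 hold GGCGCC in a window, some members having several windows. These counts are per gene and cannot be set against the shares of windows given for Inhbb. The share of all genes was not counted. These matches describe letters in a window and say nothing about binding.
Bmp4: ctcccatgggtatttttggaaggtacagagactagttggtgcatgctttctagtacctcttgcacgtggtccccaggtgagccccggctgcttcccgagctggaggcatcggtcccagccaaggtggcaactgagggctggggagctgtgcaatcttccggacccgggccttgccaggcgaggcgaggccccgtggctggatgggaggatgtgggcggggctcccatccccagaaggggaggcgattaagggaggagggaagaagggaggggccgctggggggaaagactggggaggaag
Smad6: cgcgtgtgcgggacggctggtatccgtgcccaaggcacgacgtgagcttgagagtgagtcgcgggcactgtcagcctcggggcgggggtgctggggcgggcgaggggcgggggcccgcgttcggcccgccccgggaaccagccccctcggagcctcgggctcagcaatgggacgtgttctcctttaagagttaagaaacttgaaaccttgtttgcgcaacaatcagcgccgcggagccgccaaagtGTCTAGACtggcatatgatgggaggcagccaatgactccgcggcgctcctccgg
Id3: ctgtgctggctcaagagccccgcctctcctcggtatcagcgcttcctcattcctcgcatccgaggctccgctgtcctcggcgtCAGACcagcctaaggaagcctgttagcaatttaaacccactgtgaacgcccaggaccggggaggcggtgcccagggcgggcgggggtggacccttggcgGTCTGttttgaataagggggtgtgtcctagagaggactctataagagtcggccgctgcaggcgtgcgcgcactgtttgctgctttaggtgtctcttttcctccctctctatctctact
Id4: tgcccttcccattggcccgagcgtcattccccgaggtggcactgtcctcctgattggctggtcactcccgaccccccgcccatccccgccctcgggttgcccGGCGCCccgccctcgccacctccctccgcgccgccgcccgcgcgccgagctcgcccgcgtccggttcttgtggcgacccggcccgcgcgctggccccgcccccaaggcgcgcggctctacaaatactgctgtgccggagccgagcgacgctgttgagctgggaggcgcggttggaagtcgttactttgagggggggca

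**Figure D3:**
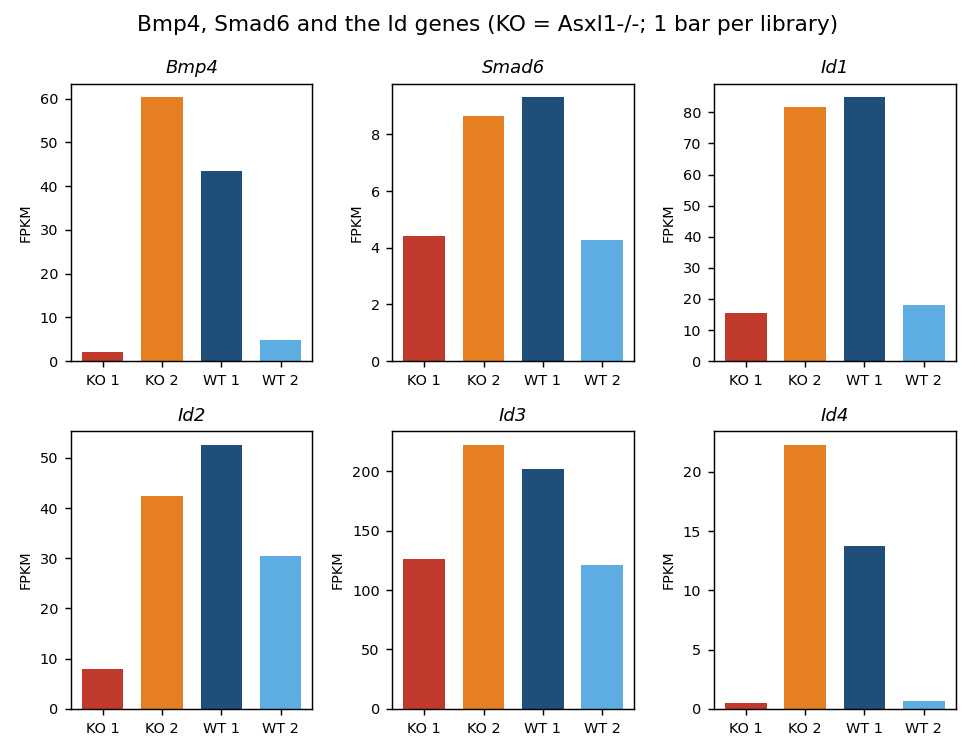
FPKM of Bmp4, Smad6 and Id1 to Id4 in each library, as bars from 0, with Asxl1-/- (KO) replicates in red and orange and WT replicates in blue. Asxl1-/- replicate 2 and WT replicate 1 hold the 2 highest values in all 6 panels, for example 81.7 and 85.0 FPKM for Id1.

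The remaining BMP and GDF ligand genes were low. Bmp6 had 2.96 and 1.80 FPKM in Asxl1-/-, against 1.53 and 0.317 FPKM in WT, without overlap (log2 fold change 0.87, standard error 0.49, limma adjusted p = 0.686). The value was 0.40 without WT replicate 2, 1.34 without WT replicate 1 and 1.55 with a pseudocount of 0.1. Gdf6, a joint and skeletal growth factor, stood at 0.0666 and 0.0478 FPKM in Asxl1-/- and was listed at 0 and at 2.10 FPKM in WT. In the authors' deposited table Gdf6 had a p of 0.0255 and a q of 0.508, on a group difference that came from WT replicate 2. With Inhba, Inhbb and Ltbp4 it makes 4 members with a p under 0.05 in that table, which gives such a p to 7.34% of the genes it tested. Bmp2, Bmp5, Gdf5 and Gdf10 did not exceed 0.778 FPKM in any library, and Bmp7 was listed at 0 in all 4.

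Among the receptors, Acvr1 and Bmpr1a, type I receptors for BMPs, stood at 26.5 and 25.6 FPKM and at 28.4 and 30.5 FPKM in Asxl1-/-, against 24.0 and 29.3 FPKM and 27.3 and 26.2 FPKM in WT. Bmpr2, the BMP type II receptor, had 15.7 and 20.1 FPKM in Asxl1-/-, against 12.8 and 13.0 FPKM in WT. Bmpr2 did not overlap between the groups and had a log2 fold change of 0.43 (standard error 0.24, limma adjusted p = 0.686), with a 95% interval from -0.21 to 1.07, and the value was 0.26 without Asxl1-/- replicate 2. The activin type II receptor gene Acvr2a had 4.39 and 7.28 FPKM in Asxl1-/-, against 3.61 and 3.67 FPKM in WT (log2 fold change 0.53, limma adjusted p = 0.702). Without Asxl1-/- replicate 2 the Acvr2a value was 0.22, and without Asxl1-/- replicate 1 it was 0.84. The activin type I receptor gene Acvr1b had 4.07 and 3.72 FPKM in Asxl1-/-, against 4.31 and 4.19 FPKM in WT, and after quantile normalization its small difference had the other sign (0.05 against -0.10). Without Asxl1-/- replicate 2 it was -0.05. Bmpr1a, likewise without overlap, had a log2 fold change of 0.13, with a 95% interval from -0.44 to 0.71, and the value was 0.08 without Asxl1-/- replicate 2.

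The TGF-beta receptor genes overlapped between the groups. Tgfbr1, the type I kinase, stood at 6.24 and 12.7 FPKM in Asxl1-/-, with WT replicate 1 between these values and WT replicate 2 lowest, at 3.86 FPKM. Tgfbr2, the type II kinase and the receptor gene with the highest mean in either group, stood at 40.3 and 52.1 FPKM in Asxl1-/- and at 30.1 and 70.5 FPKM in WT. Genes of chromosome 9, on which Tgfbr2 lies, had a median log2 level 0.40 above the other libraries in WT replicate 2 and below them in WT replicate 1 (-0.33), and the part of this in Tgfbr2 was not tested. The coreceptor gene Tgfbr3 stood at 27.9 and 31.3 FPKM in Asxl1-/- and at 49.8 and 19.7 FPKM in WT. Acvrl1, the type I receptor of endothelial cells, reached 2.47 FPKM in Asxl1-/- replicate 1 and at most 0.450 FPKM in the other libraries. Acvr2b and Bmpr1b did not exceed 0.449 FPKM in any library.

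Smad genes were present in every library, with little difference between the genotypes for the receptor-activated Smads of TGF-beta. Smad2 stood between 7.44 and 8.34 FPKM in all 4 libraries, and Smad3 at 17.2 and 12.6 FPKM in Asxl1-/- and at 17.3 and 17.1 FPKM in WT. The shared partner Smad4 had 32.4 and 23.0 FPKM in Asxl1-/-, against 22.6 and 21.1 FPKM in WT, a non-overlapping pair of groups whose nearest libraries differed by less than 1 FPKM (log2 fold change 0.31, standard error 0.27). Without Asxl1-/- replicate 1 that fold change was 0.07, and without Asxl1-/- replicate 2 it was 0.55. Among the BMP Smads, Smad1 had 8.35 and 7.82 FPKM in Asxl1-/-, against 12.1 and 10.1 FPKM in WT (log2 fold change -0.41, standard error 0.23, limma adjusted p = 0.690). Genes of chromosome 8, which carries Smad1, had median log2 levels of -0.26 and -0.07 relative to the other libraries in Asxl1-/-. In WT these were 0.23 and 0.09, the same direction as Smad1, and the part of this in the Smad1 difference was not tested. Smad5 stood at 13.2 and 16.8 FPKM in Asxl1-/- and at 15.7 and 9.81 FPKM in WT, so the ratio of Smad5 to Smad1 was 1.58 and 2.15 in Asxl1-/-, against 1.29 and 0.975 in WT. Smad9, the least abundant, had 0.484 and 1.39 FPKM in Asxl1-/-, against 4.04 and 1.47 FPKM in WT. Its log2 fold change of -0.91 (standard error 0.52) was -0.39 without WT replicate 1, -0.56 without Asxl1-/- replicate 1, -1.42 without WT replicate 2 and -1.45 with a pseudocount of 0.1. Genes of chromosome 3, which carries Smad9, had a median log2 level below the other libraries in Asxl1-/- replicate 1 (-0.58) and above them in WT replicate 1 (0.56), the libraries in which Smad9 was lowest and highest. The part of this in the Smad9 difference was not tested, and after quantile normalization its groups overlapped. The inhibitory Smad7 stood at 5.47 and 5.89 FPKM in Asxl1-/- and at 5.51 and 3.55 FPKM in WT.

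Among the regulators, Ski, a nuclear corepressor of Smad3 and Smad4, had 21.9 and 24.6 FPKM in Asxl1-/-, against 16.9 and 16.4 FPKM in WT. The replicates of each group lay closer to each other than to the other group, and the log2 fold change was 0.46 (standard error 0.22, limma adjusted p = 0.648). Its relative Skil stood at 5.46 and 8.32 FPKM in Asxl1-/- and at 6.10 and 4.48 FPKM in WT. The corepressor Tgif1, at 23.4 to 30.7 FPKM in Asxl1-/- and 27.1 to 36.6 FPKM in WT, and the ubiquitin ligases Smurf1 and Smurf2, between 12.0 and 19.8 FPKM in all libraries, overlapped between the groups. Tgfbi, a matrix protein gene named for its induction by TGF-beta, stood at 67.3 and 52.7 FPKM in Asxl1-/- and at 100 and 5.36 FPKM in WT. Its 18.7-fold difference within WT exceeded that between the groups, and the log2 fold change of 1.26 was -0.74 without WT replicate 2. Tgfbi also lies on chromosome 13, whose genes stood higher in WT replicate 1 (0.38) than in WT replicate 2 (-0.23), and their part in its level was not tested.

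**Figure D4:**
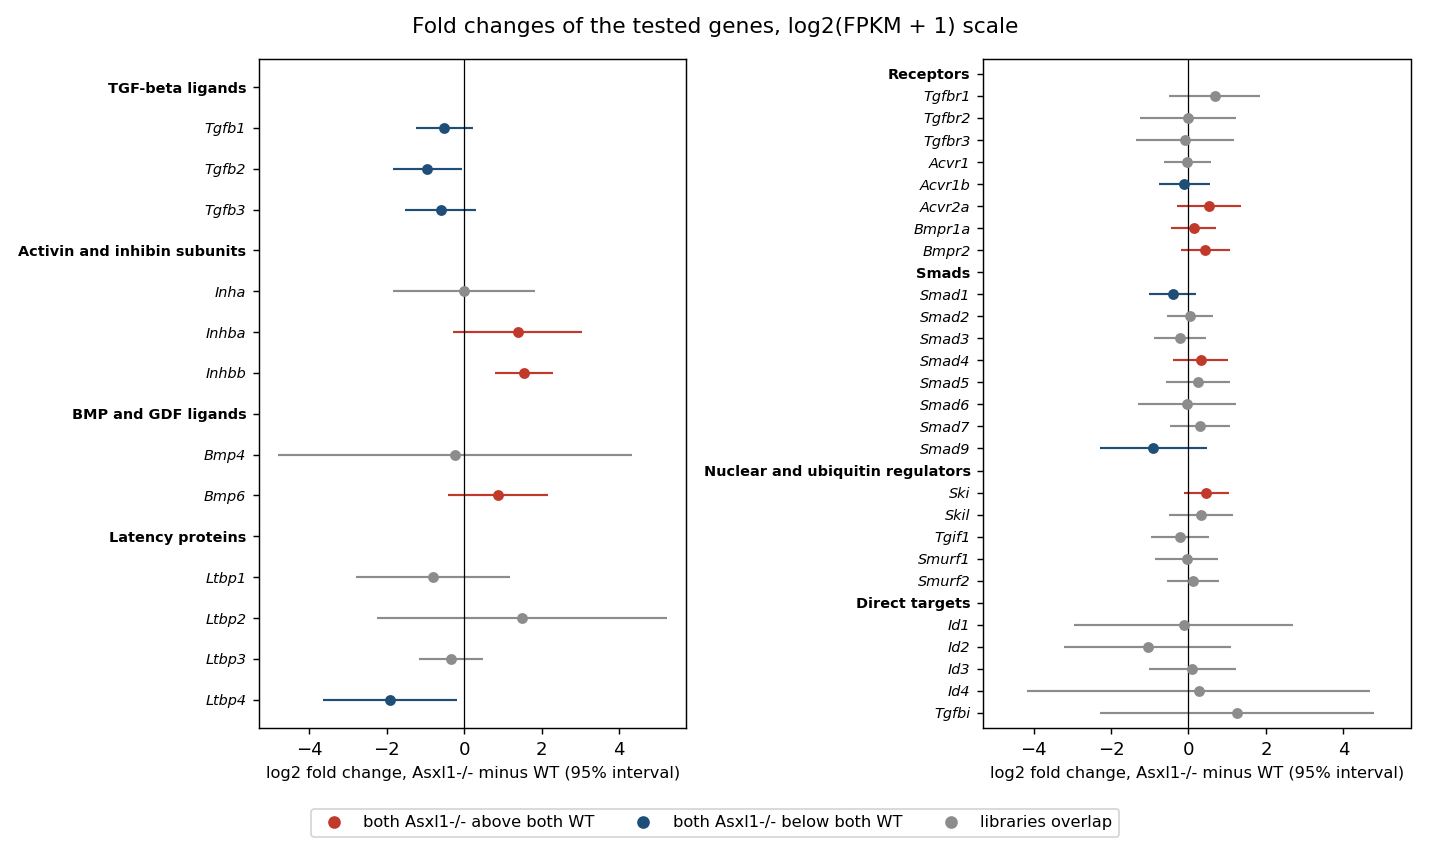
Log2 fold change (Asxl1-/- minus WT) on the log2(FPKM + 1) scale of the 38 tested genes with 95% limma intervals, by role; red marks genes with both Asxl1-/- libraries above both WT libraries, blue the reverse and grey overlap. Intervals are narrow for Smad2 and Bmpr1a and wide for Bmp4, Ltbp2, Id1, Id4 and Tgfbi, whose replicates differ most.

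For 30 of the 38 tested members (78.9%) the larger difference between replicates exceeded the difference between the genotypes on the log2 scale, as it did for 72.2% of all genes tested. An exact permutation test of a single gene cannot pass 0.05 here, since 2 libraries against 2 allow a two-sided p no smaller than 0.333.

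Other genes of the pathway were read from 7 lists of symbols, and none passed the limma test after adjustment. Of 17 tested genes that act in the storage and activation of latent TGF-beta, 9 lay above and 2 below WT in both Asxl1-/- libraries, against 15.6% and 25.2% of all genes, and their median log2 fold change was 0.31. Lrrc32, which encodes GARP, a cell-surface anchor for latent TGF-beta, had 129 and 81.9 FPKM in Asxl1-/-, against 10.9 and 16.6 FPKM in WT (log2 fold change 2.85, standard error 0.36, limma adjusted p = 0.369). It had the smallest p in this list and in the list of coreceptors, where 2 of 6 tested genes lay above and 1 below. The fibrillin genes, whose products hold latent complexes in microfibrils, stood on opposite sides. Fbn1 had 150 and 265 FPKM in Asxl1-/-, against 62.3 and 83.8 FPKM in WT, and Fbn2 had 1.28 and 0.0154 FPKM in Asxl1-/-, against 20.4 and 13.2 FPKM in WT. The protease gene Mmp9 had 0.0498 and 0.0805 FPKM in Asxl1-/-, against 3.72 and 0.990 FPKM in WT. The coreceptor Eng, endoglin, had 0.906 and 0.571 FPKM in Asxl1-/-, against 10.7 and 0.912 FPKM in WT, where only WT replicate 1 stood apart. Rgmb and Bambi, a BMP coreceptor and a pseudoreceptor, had log2 fold changes of 0.30 and -0.51.

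Known TGF-beta target genes were split, with 9 of 29 above and 7 below in both Asxl1-/- libraries and a median log2 fold change of -0.06. Of all genes tested 15.6% lay above and 25.2% below. Pmepa1, which encodes a feedback inhibitor that binds Smad2 and Smad3, had 37.2 and 28.1 FPKM in Asxl1-/-, against 11.6 and 8.31 FPKM in WT (log2 fold change 1.62, standard error 0.29, limma adjusted p = 0.488). Snai1, a transcription factor of epithelial-mesenchymal transition, had 12.4 and 11.7 FPKM in Asxl1-/-, against 43.5 and 32.5 FPKM in WT. In the same list the lipid kinase gene Sphk1 was lower, at 8.14 and 7.66 FPKM in Asxl1-/- against 18.7 and 20.7 FPKM in WT, and the protease gene Adam12 higher, at 6.84 and 7.50 FPKM against 1.23 and 2.86 FPKM in WT. Of 7 tested BMP target genes outside the set 3 lay below and 0 above, against 25.2% and 15.6% of all genes tested. Their median log2 fold change was -0.94. The osteoblast regulator Runx2 had 5.73 and 7.32 FPKM in Asxl1-/-, against 13.6 and 17.6 FPKM in WT. Gata2 had 1.23 and 2.64 FPKM in Asxl1-/-, against 13.5 and 4.60 FPKM in WT, and Msx2 had 0.836 and 0.655 FPKM in Asxl1-/-, against 1.57 and 3.34 FPKM in WT. Tnfrsf11b, osteoprotegerin, overlapped at 10.6 and 3.10 FPKM in Asxl1-/- and 9.44 and 22.1 FPKM in WT.

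For the lists that follow, 15.6% of all genes tested lay above and 25.2% below, or 20.6% and 20.1% after quantile normalization. Of 24 tested intracellular regulators 5 lay above and 2 below in both Asxl1-/- libraries, with a median log2 fold change of 0.04. Besides Pmepa1 the regulators include Zeb1, a transcription factor that binds Smads, at 24.5 and 27.2 FPKM in Asxl1-/-, against 15.8 and 17.1 FPKM in WT. Tgfbrap1, a receptor-associated protein, had 10.3 and 14.5 FPKM in Asxl1-/-, against 4.06 and 7.68 FPKM in WT. The kinase gene Map3k7 (TAK1), which relays Smad-independent signals, had 12.8 and 16.0 FPKM in Asxl1-/-, against 19.1 and 21.1 FPKM in WT. Of 20 further ligand genes 4 were tested, of which Gdf11, a relative of myostatin, lay above in both libraries, at 11.2 and 22.0 FPKM in Asxl1-/- against 6.46 and 9.48 FPKM in WT. Bmp1, a procollagen protease in spite of its name, Gdf15 and Lefty1 overlapped. Of 15 tested extracellular antagonists 5 lay above and 0 below, with a median log2 fold change of 0.30. Crim1 had 28.5 and 66.3 FPKM in Asxl1-/-, against 21.0 and 8.95 FPKM in WT, and Fstl1 and Chrd had log2 fold changes of 1.07 and 1.04 without overlap. The BMP antagonist Grem1 overlapped, at 37.6 and 244 FPKM in Asxl1-/- and 22.9 and 40.2 FPKM in WT. Proliferation genes were lower in Asxl1-/-, with 19 of 20 below both WT libraries, against 25.2% of all genes tested. At an unadjusted limma p under 0.05, 14 were lower, against 5.41% of all genes tested, and 0 were called after adjustment. The part of proliferation in these lists was not tested.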

How the data were processed

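RNA of 2 Asxl1-/- and 2 WT cultures was sequenced. Per the submitters' processing notes, the tools were TopHat2 (2.0.3), Cufflinks (2.2.1) and its Cuffdiff program, and the build was mm10. Annotation, library kit and strandedness are not stated there, so overlapping and antisense genes are uncertain. The authors deposited FPKM per library in 24487 rows. Their deposited Cuffdiff table gives group FPKM, log2 fold changes, p-values and q-values. The FPKM file has 2 further columns that match no sample here, and these were not used.

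For each symbol the entry with the highest mean was kept. Genes averaging 1 FPKM or more were tested on log2(FPKM + 1) with limma (version 3.58.1, R version 4.3.3), using lmFit and a trended eBayes, and Benjamini-Hochberg adjustment covered all genes tested. The log2 scale understates changes of low genes. The fit was tested on simulated data to check that known fold changes are returned. The simulated replicates varied less than the fit estimated for the members, so the test does not show what could be detected here. Starts have 1 added, since this matches a GENCODE M21 transcript start for 26 of 47 members, against 2 without. Groups follow the genotype label, and replicates are numbered in accession order. Members were named with values where the groups did not overlap, the absolute log2 fold change was at least 1, the authors called them or the mean was at least 20 FPKM, with others added to complete a family, and up to 4 genes with the smallest p from each other list. Members and lists were chosen with earlier results of these data known. Alternatives were other pseudocounts (0.1 and 0.5), filters (none, or 5 FPKM), scalings (median ratio, quantile) and eBayes settings (no trend, robust), the omission of genes spanning under 300 bp, a macrophage covariate, and the omission of each library. The number of reads is unknown, so no counting interval is given. Python (version 3.11.15), pandas (2.3.3), numpy (2.4.6) and matplotlib (3.10.9) were used for the remaining steps.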

Additional observations from a re-analysis of the deposited data

How the results depend on the processing

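No member reached an adjusted limma p under 0.05 under any of the 14 alternatives, and the lowest adjusted p among the 22 members followed there was 0.417. Of these 22, 14 kept their sign under all alternatives. The sign of Acvr1b differed after quantile normalization (0.048), and that of 7 others with a library left out, where log2 fold changes ran from -2.38 to 1.92 for Bmp4, -1.29 to 1.03 for Id1, -2.19 to 0.079 for Id2, -0.30 to 0.51 for Id3, -1.71 to 2.23 for Id4, -0.46 to 3.45 for Ltbp2 and -0.74 to 3.25 for Tgfbi. Members at an unadjusted p under 0.05 numbered 2 higher and 0 lower with no filter, and 0 higher and 1 lower at a mean of at least 5 FPKM, where 5 members lay above and 4 below without overlap because fewer were tested. With a library left out, 1 to 4 members were higher and 0 to 2 lower at that p, 9 to 19 lay above and 9 to 17 below, and the median of the members ran from -0.24 to 0.33. The extremes of the median were without WT replicate 2 and without WT replicate 1. With a library left out the lone sample is assumed to vary like the other group. Over all genes 1 was called with no filter and 0 without rows under 300 bp; with a library left out 1 to 8 were called, 0 to 4 of them higher. The causes were not tested. The log2 fold change of Lrrc32 ran from 2.52 to 3.17 with a library left out. No paired analysis was possible because the labels give the libraries no shared replicate numbers. With 2 libraries per group and an unknown read number, differences within the printed intervals were not detectable.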
